A study of Mus musculus with 9 samples.

Results

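The mRNAs of the 5 NF-kB subunit genes (Nfkb1, Nfkb2, Rel, Rela and Relb) and of 5 genes that restrain or modify NF-kB and are themselves induced by it (Nfkbia, Nfkbie, Nfkbiz, Tnfaip3 and Bcl3) were followed across 3 groups of mouse cells. The 10 genes were picked by name from the 55322 genes of the expression table, all 10 were found there, and all 10 passed the filter on low values in every comparison. CD11b+ B cells and CD11b- B cells were sorted from the bone marrow (BM) of WT C57BL/6 mice 48 h after intraperitoneal LPS (5 mg/kg), a component of the wall of Gram-negative bacteria. Peritoneal macrophages (PMs, CD11b+F4/80+) were sorted from naive C57BL/6 mice. Each group had 3 libraries, and the labels do not say which of them came from separate animals, so p-values measure only the spread between these libraries, which may be technical. BM cells bearing CD3, CD4, CD8, Gr-1, NK1.1 or TER119 were removed before the B cell sort. PMs differed from both B cell groups in cell type, tissue and LPS treatment, and these cannot be told apart. No B cells from naive mice and no PMs from LPS-treated mice were analysed here, so no value is a response to LPS.

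NF-kB factors are dimers of the proteins made from the 5 subunit genes. Rela, Rel and Relb carry a transactivation domain, whereas Nfkb1 and Nfkb2 encode precursors that hold their partners in the cytoplasm until they are cut to short DNA-binding subunits. In the canonical pathway, used by Toll-like receptors and by the B cell receptor, the IKK complex marks IkB proteins such as the products of Nfkbia and Nfkbie for degradation, and dimers with Rela or Rel enter the nucleus. In the noncanonical pathway, used in B cells by the BAFF receptor and CD40, the kinase encoded by Map3k14 triggers processing of the Nfkb2 precursor and frees dimers with Relb. Nfkbia, Nfkbie and Tnfaip3, which encodes a ubiquitin-editing enzyme, close negative feedback loops. Nfkbiz and Bcl3 encode nuclear IkB-like proteins that bind subunit homodimers on DNA.

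Sequences upstream of the members are shown because several of these genes are known targets of the factor they encode or restrain. RefSeq promoters of 300 bases on GRCm38.p6, 250 of them before the start, were found for 7 of the 10 genes, with 10 starts in all. Nfkb1, Relb and Nfkbiz were not matched. The kB consensus motif was read as GGG, a purine, any base, A or T, a pair of pyrimidines and CC. Searched on both strands, it was found in 6 of the 7 genes and in 8 of the 10 promoters. Over all promoters of the same length, it was found in 5.14% of 27025 genes and 4.51% of 32851 promoters. Several members were chosen as genes induced by NF-kB, so this contrast follows in part from the choice and is not a test. Rela was the gene with no match. A looser motif, GGGNNNNNCC on either strand, was found in 10 of 10 promoters of the members and in 50.8% of all promoters. A match describes letters only, and overlapping matches were counted separately. Positions below count from the RefSeq start base at 0, and capitals mark the matches.

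The upstream windows of the most abundant member, Nfkbia (chr12:55492648-55492897, minus strand, match at -29 to -20), and of Nfkbie (chr17:45555450-45555699, plus strand, match at -106 to -97) are given whole, next to 192 of the 250 upstream bases of Rela (chr19:5637291-5637482, plus strand), which are printed up to the GENCODE start of the gene. The whole Rela window held no match.
Nfkbia: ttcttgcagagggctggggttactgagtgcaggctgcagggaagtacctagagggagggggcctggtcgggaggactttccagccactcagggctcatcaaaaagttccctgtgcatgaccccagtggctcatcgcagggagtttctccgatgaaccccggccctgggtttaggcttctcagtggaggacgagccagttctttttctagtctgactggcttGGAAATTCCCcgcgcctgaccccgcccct
Nfkbie: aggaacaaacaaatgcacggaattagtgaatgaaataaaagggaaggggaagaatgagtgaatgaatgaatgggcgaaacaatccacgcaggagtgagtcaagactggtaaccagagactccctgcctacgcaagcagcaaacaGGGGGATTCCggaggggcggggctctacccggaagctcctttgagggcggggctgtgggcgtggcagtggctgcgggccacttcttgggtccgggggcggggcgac
Rela: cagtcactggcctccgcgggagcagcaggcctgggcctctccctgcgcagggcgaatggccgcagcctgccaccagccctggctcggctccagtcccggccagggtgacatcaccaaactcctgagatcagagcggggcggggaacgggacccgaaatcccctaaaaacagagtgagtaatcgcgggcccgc

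Of the other members, matches are shown with 8 bases on each side, read 5′ to 3′ on the strand of the gene. In Nfkb2 they lie at chr19:46304698-46304707, chr19:46304726-46304735, chr19:46305459-46305468 and chr19:46305705-46305714 (plus strand), the last of them in the windows of 2 starts. The first of these overlaps a second match shifted by 1 base, and all lie within the GENCODE span of the gene, which starts before these RefSeq starts. In Rel the match lies at chr11:23771052-23771061 (minus strand) and also overlaps a second match. The Tnfaip3 matches lie at chr10:19015526-19015535 and chr10:19015413-19015422 (minus strand), before the RefSeq start but within the GENCODE span of the gene. The Bcl3 match lies at chr7:19822744-19822753 (minus strand), at 2 to 11 after the start.
Nfkb2 at -39: atcgtcacGGGAATTCCCcccctcgg
Nfkb2 at -11: ggccgaaaGGGGCTTTCCcggctgga
Nfkb2 at -236 of another start: cgacggcaGGAATGTCCCcacaaaag
Nfkb2 at 10 of the same start: gtattttcGGGACTTTCCtaagcagc
Rel at -92: taagcagcGGGAAATCCCcccccctc
Tnfaip3 at -125: ctcacgcgGGGACACCCCggggcggg
Tnfaip3 at -12: tttccatcGGAAATCCCCctgttggc
Bcl3 at 2: ggcggcagGGGAAGTCCCgctgcccg

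Library depth ran from 18014658 to 35251215 reads on genes, and PMs (18014658 to 29208721) were below the CD11b- B cells (32056102 to 34895579). The labels were checked against lists of cell type markers. The summed FPKM of 10 B cell markers was 5245 to 5925 in CD11b+ B cells, 6680 to 6995 in CD11b- B cells and 61.4 to 118 in PMs. The summed FPKM of 10 macrophage markers was 20442 to 55023 in PMs, 84.5 to 283 in CD11b+ and 35.1 to 48.3 in CD11b- B cells. Most of each sum was Lyz2, at 18657 to 53005.5 in PMs, 65.4 to 261 in CD11b+ and 30.1 to 42.2 in CD11b- B cells. Of the rest, none averaged above the 10.4 FPKM of Cd68 in CD11b+ B cells, where PMs were at 341. The 10 neutrophil markers, on the other hand, summed to 217 to 1576 in CD11b+ B cells, 1.74 to 3.01 in CD11b- B cells and 5.17 to 24.0 in PMs. Itgam, which encodes CD11b, was at 1.31 to 1.92 FPKM in CD11b+ B cells, 0.251 to 0.869 in CD11b- B cells and 251 to 358 in PMs. B cell precursor markers summed to 175 in CD11b- replicate 3 and 42.3 in CD11b+ replicate 3, and to no more than 3.49 in the other B cell libraries. T cell and NK cell markers summed to no more than 3.65 in any library, and erythroid markers summed to 27.6 to 39.1 in CD11b+ B cells, 1.40 to 21.2 in CD11b- B cells and at most 0.112 in PMs.

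Levels are given as FPKM, reads scaled to exon length and to the reads counted in the library, which allows genes to be compared per length within a library. Among the subunits, Nfkb2 (chr19:46304320-46312385, plus strand), the precursor of the noncanonical pathway, was at 14.97, 15.6 and 13.1 FPKM in PM replicates 1 to 3, at 100.9, 102 and 97.4 in CD11b- B cells, and at 70.1, 90.4 and 67.2 in CD11b+ B cells. The 3 groups did not overlap, and CD11b- B cells were highest. Part of the Nfkb2 span is shared with Psd and an antisense long noncoding RNA on the other strand. The use of strand in counting is not stated, so reads of the shared stretches cannot be assigned. Relb (chr7:19606217-19629438, minus strand), its usual partner, was at 2.17, 4.37 and 4.73 FPKM in PMs, 43.1, 42.4 and 48.2 in CD11b- B cells, and 33.9, 36.3 and 34.0 in CD11b+ B cells. Again the groups were apart in the same order, and the lowest PM value rested on 152 reads.

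Rel (chr11:23736847-23770970, minus strand) encodes c-Rel, a subunit best known in lymphocytes. Its FPKM was 5.36, 5.39 and 5.01 in PMs, 31.6, 28.7 and 21.4 in CD11b- B cells, and 24.9, 23.9 and 19.3 in CD11b+ B cells, so that the B cell groups overlapped and both were above PMs. Rela (chr19:5637483-5648130, plus strand), the main transactivating subunit of the canonical pathway, was at 42.6, 35.9 and 48.1 FPKM in PMs, 58.7, 67.3 and 65.9 in CD11b- B cells, and 47.6, 57.3 and 47.6 in CD11b+ B cells. Here CD11b+ B cells overlapped PMs and CD11b- B cells stood above both. Nfkb1 (chr3:135584655-135691547, minus strand), the precursor of the canonical pathway, was at 9.17, 7.23 and 8.003 FPKM in PMs, 12.0, 13.5 and 15.95 in CD11b- B cells, and 14.5, 15.2 and 18.9 in CD11b+ B cells. It was the 1 member with a higher mean in CD11b+ than in CD11b- B cells, and these groups overlapped. The gene model Gm43430 lies within its span on the same strand.

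Of the inhibitors, Nfkbia (chr12:55489410-55492647, minus strand), which encodes IkB-alpha, was at 239.8, 271 and 199 FPKM in PMs, 318, 347 and 412 in CD11b- B cells, and 288, 298 and 291 in CD11b+ B cells. It was the most abundant member in every library, ranking 209th of all genes by mean FPKM in PMs, 114th in CD11b- B cells and 158th in CD11b+ B cells. Nfkbie (chr17:45555703-45563169, plus strand), which encodes IkB-epsilon, was at 7.80, 10.8 and 10.8 FPKM in PMs, 85.2, 90.2 and 100.4 in CD11b- B cells, and 66.5, 71.8 and 47.7 in CD11b+ B cells, with no overlap between any of the groups. Tnfaip3 (chr10:19000910-19015657, minus strand) was at 2.97, 0.185 and 1.64 FPKM in PMs, 16.9, 19.4 and 17.5 in CD11b- B cells, and 13.5, 14.0 and 9.03 in CD11b+ B cells. The groups were apart, and PM replicate 2 held 39 reads of this gene, against 387 and 239 in the other PM libraries.

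Bcl3 (chr7:19808462-19822770, minus strand), a partner of homodimers made from Nfkb1 or Nfkb2 products, was at 12.5, 17.3 and 17.0 FPKM in PMs, 72.0, 83.2 and 52.4 in CD11b- B cells, and 43.9, 58.6 and 51.2 in CD11b+ B cells. The B cell groups overlapped and both exceeded PMs. Bcl3 overlaps the antisense genes Gm16175 and Gm16174 in position, and the use of strand in counting is not stated, so reads of the overlapping stretches cannot be assigned. Nfkbiz (chr16:55811375-55838899, minus strand) was at 12.4, 9.97 and 9.71 FPKM in PMs, 12.3, 12.8 and 15.3 in CD11b- B cells, and 11.7, 9.88 and 16.7 in CD11b+ B cells, and all groups overlapped.

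**Figure D1:**
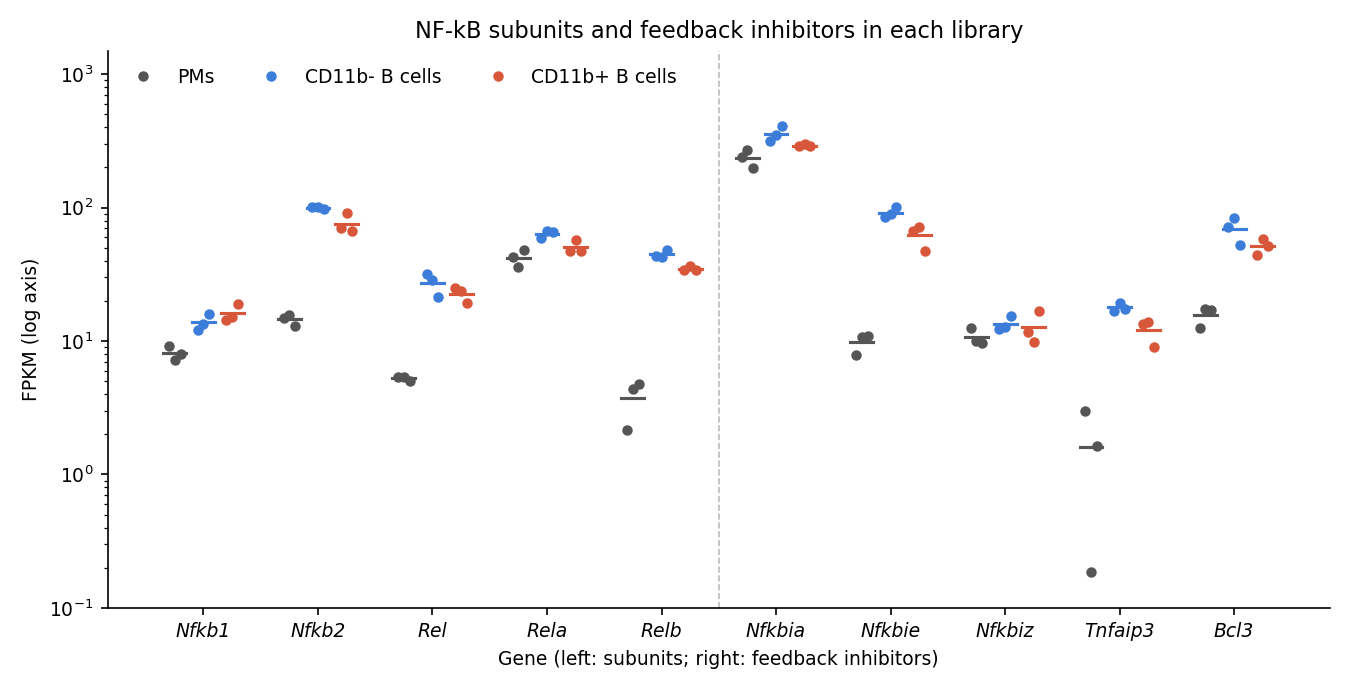
FPKM of each member on a log axis, with 1 point per library and a line at the mean of the 3 libraries of each group. The 6 members Nfkb2, Rel, Relb, Nfkbie, Tnfaip3 and Bcl3 are well above the PMs in both B cell groups, and the lowest point is Tnfaip3 in PM replicate 2 at 0.185 FPKM.

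The order of the members by mean FPKM differed between PMs and B cells. In PMs it was Nfkbia, Rela, Bcl3, Nfkb2, Nfkbiz, Nfkbie, Nfkb1, Rel, Relb and Tnfaip3, and the neighbours Bcl3 and Nfkb2, Nfkbiz and Nfkbie, Nfkbie and Nfkb1, and Relb and Tnfaip3 overlapped. In CD11b- B cells the order was Nfkbia, Nfkb2, Nfkbie, Bcl3, Rela, Relb, Rel, Tnfaip3, Nfkb1 and Nfkbiz. Only Nfkb2 and Nfkbie, Bcl3 and Rela, and Nfkb1 and Nfkbiz overlapped there. CD11b+ B cells had the same first 7 genes in the same order, followed by Nfkb1, Nfkbiz and Tnfaip3, with overlap between Nfkb2 and Nfkbie, Nfkbie and Bcl3, Bcl3 and Rela, Nfkb1 and Nfkbiz, and Nfkbiz and Tnfaip3. Summed over the 5 subunits, FPKM was 73.8 ± 5.25 (SD, n = 3) in PMs, 249.6 ± 3.63 in CD11b- B cells and 200.4 ± 19.8 in CD11b+ B cells.

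CD11b+ and CD11b- B cells came from the same tissue and treatment, and their comparison asks whether the B cells with the myeloid surface marker differ in NF-kB genes. None of the 10 members passed the threshold (limma on log2(FPKM + 1), Benjamini-Hochberg adjusted over 21778 genes, adjusted p from 0.495 to 0.883). Of all genes, 0.0689% did, 15 higher and 0 lower in CD11b+ B cells (40 higher without CD11b+ replicate 3, and 3 to 7 without any other library), and 1012 and 661 had an unadjusted p under 0.05. edgeR and DESeq2 on whole reads called 0 members as well, with 42 calls (0.269%) and 392 calls (1.73%) among all genes. A lower mean in CD11b+ B cells was nevertheless found for 9 members. In 6 of them (Nfkb2, Rela, Relb, Nfkbia, Nfkbie and Tnfaip3) all CD11b+ libraries were below all CD11b- libraries, compared with 6.32% of all genes tested. In 5 (Nfkb2, Rela, Relb, Nfkbie and Tnfaip3) the unadjusted p was under 0.05 with a lower mean, compared with 3.04% of all genes. Both shares are over genes with a mean FPKM down to 0.05, most of them lower than the members. The members share the same libraries and moved together, with CD11b+ replicate 2 the highest of its group for 7 of them. These counts are therefore not separate observations. The median difference of the members in log2(FPKM + 1) was -0.34, and that of all genes was 0.03.

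The lowest estimates were those of the feedback inhibitors Nfkbie, at -0.58 on the log2(FPKM + 1) scale (95% interval -0.98 to -0.17), and Tnfaip3, at -0.54 (-0.98 to -0.11). Both rested in part on CD11b+ replicate 3, without which they were at -0.40 and -0.36 and Bcl3, at -0.41, was the lowest. Mean Nfkbie was 61.99 ± 12.7 FPKM (SD, n = 3) in CD11b+ and 91.9 ± 7.75 in CD11b- B cells. For the noncanonical genes the estimate was -0.41 (-0.74 to -0.07) for Nfkb2 and -0.35 (-0.63 to -0.07) for Relb. Bcl3 was at -0.41 (-0.86 to 0.04), Rela at -0.33 (-0.64 to -0.02), Nfkbia at -0.29 (-0.65 to 0.07) and Rel at -0.24 (-0.66 to 0.18). Nfkbiz, at -0.10 (-0.57 to 0.38), had its sign set by 1 library, since without CD11b+ replicate 2 it was at 0.06. Nfkb1 was at 0.22 (-0.17 to 0.61). The intervals do not show that the 2 groups were alike. An exact two-sided permutation test over the libraries gave p = 0.1 for each of the 6 members without overlap, the smallest value that 3 against 3 can give.

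Measures of cell make-up moved in the same comparison. Of 10 B cell markers, 9 had a lower mean in CD11b+ B cells, 5 without overlap and none past the threshold, with a median of -0.24. All 10 neutrophil markers had a higher mean and 3 passed the threshold (median 4.16), and 9 of 9 macrophage markers tested had a higher mean, with none past it (median 0.99). Of 6 plasma cell markers 5 were higher, with none past the threshold, and their summed FPKM was 252 to 635 in CD11b+ and 101 to 179 in CD11b- B cells. The part of these cells in the lower means of the NF-kB genes was not tested, and in bulk RNA fewer cells with an mRNA and less of it per cell cannot be told apart. The members themselves are expressed in naive PMs, most of them at lower FPKM than in B cells. They were not measured in sorted neutrophils or plasma cells.

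**Figure D2:**
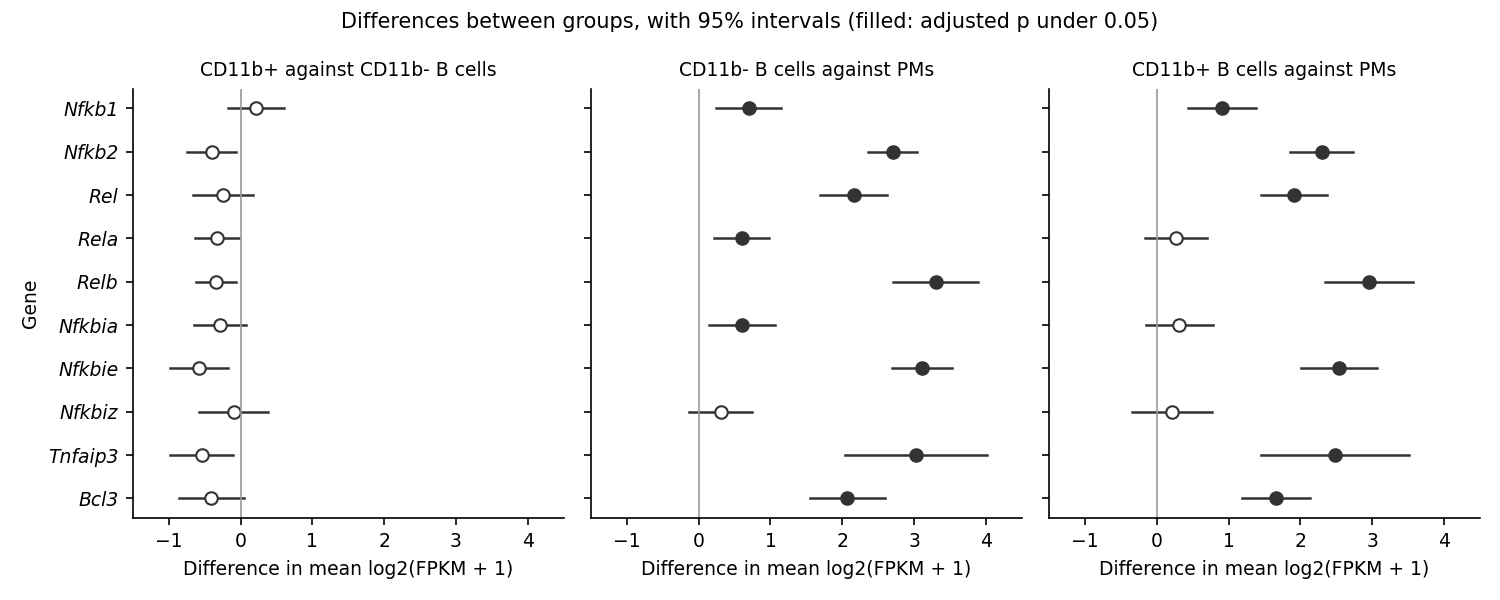
Difference in mean log2(FPKM + 1) of each member in the 3 comparisons, with the 95% interval from limma as a line and a filled point where the adjusted p was under 0.05. All points in the left panel are open and 9 of 10 lie below 0, while 9 members in CD11b- B cells and 7 in CD11b+ B cells are filled and above 0 against PMs.

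Against PMs, 9 of the 10 members were higher in CD11b- B cells (all but Nfkbiz) and 7 in CD11b+ B cells (Nfkb1, Nfkb2, Rel, Relb, Nfkbie, Tnfaip3 and Bcl3), and none was lower (11.0 and 8.78% of all genes were called lower). Among all genes tested, 25.8% were called higher in CD11b- B cells (36.7% in either direction) and 21.5% in CD11b+ B cells (30.3% in either direction). The median difference of the members in log2(FPKM + 1) was 2.11 for CD11b- and 1.79 for CD11b+ B cells, where the medians of all genes were 0.24 and 0.25. With the filter at 1 FPKM, the median of the genes tested was 0.53 in both comparisons. Both comparisons use the same PM libraries, so they are not separate evidence.

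The upper group had 6 members, and their calls held under every scaling, count model and left-out library that was tried. Relb was 11.9 times the PM mean in CD11b- B cells (3.30 on the log2(FPKM + 1) scale, SE 0.25, adjusted p = 5.99e-05 by limma) and 9.24 times in CD11b+ B cells (2.96, SE 0.26, adjusted p = 0.000114). Nfkbie was 9.38 times the PM mean in CD11b- B cells (log2 3.12, SE 0.18) and 6.33 times in CD11b+ B cells (log2 2.54, SE 0.23). Tnfaip3 was 11.2 and 7.60 times the PM mean, with the widest errors (log2 3.03, SE 0.42, and 2.48, SE 0.45). Without PM replicate 2, the library with 39 reads, its log2 difference was 2.54 and 2.0, and without PM replicate 1, the highest of the PM libraries, it was 3.42 and 2.87, past the threshold in each case. At this level the pseudocount matters, and with a pseudocount of 0.01 the same differences were 4.18 and 3.60. Nfkb2 was 6.88 and 5.22 times the PM mean (log2 2.704, SE 0.15, and 2.30, SE 0.19). Rel was 5.19 and 4.32 times (log2 2.16 and 1.91, SE 0.20 in both), and Bcl3 4.44 and 3.29 times (log2 2.07, SE 0.22, and 1.66, SE 0.21).

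The other 4 members were within about 1 log2 unit of PMs. Their calls depended on how libraries were scaled, since median-ratio size factors shifted all genes, relative to FPKM, by 0.53 (CD11b-) or 0.50 (CD11b+) against PMs. Nfkb1 was 1.70 times the PM mean in CD11b- B cells (log2 0.69, SE 0.19, adjusted p = 0.0253 by limma) and 1.99 times in CD11b+ B cells (log2 0.91, SE 0.21, adjusted p = 0.0124). With median-ratio scaling it stood at 0.20 and 0.45, with adjusted p = 0.403 and 0.135. Rela in CD11b- B cells was at 0.60 (SE 0.17, adjusted p = 0.0251) and Nfkbia at 0.60 (SE 0.19, adjusted p = 0.0447). After median-ratio scaling both were at 0.07, and their calls were lost. Quantile normalization moved them in opposite directions, Rela to 0.35 (adjusted p = 0.130 by limma) and Nfkbia to 0.86 (adjusted p = 0.00766), so that the call of Nfkbia was kept. In CD11b+ B cells Rela was at 0.27 (adjusted p = 0.320) and Nfkbia at 0.31 (adjusted p = 0.281), and both fell below 0 under median-ratio scaling, at -0.22 and -0.19, whereas quantile normalization put Nfkbia at 0.45 (adjusted p = 0.114). Nfkbiz was at 0.31 and 0.21, with adjusted p = 0.242 and 0.508, and was also below 0 after median-ratio scaling, at -0.19 and -0.25.

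In CD11b- B cells the calls of Nfkb1, Rela and Nfkbia also rested on having all 6 libraries. Nfkb1 lost its call without CD11b- replicate 2 or 3 or PM replicate 2 or 3 (adjusted p up to 0.0804). Rela lost it without any of the CD11b- libraries or without PM replicate 2 (up to 0.0948), and Nfkbia lost it without any library other than PM replicate 2 (up to 0.120). The number of members called higher was 6 under median-ratio scaling in both B cell groups, and these were the 6 members of the upper group. The same scaling moved the calls among all genes from 5404 higher and 2306 lower to 3411 and 3088 in CD11b- B cells, and from 4760 and 1940 to 2922 and 2566 in CD11b+ B cells.

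**Figure D3:**
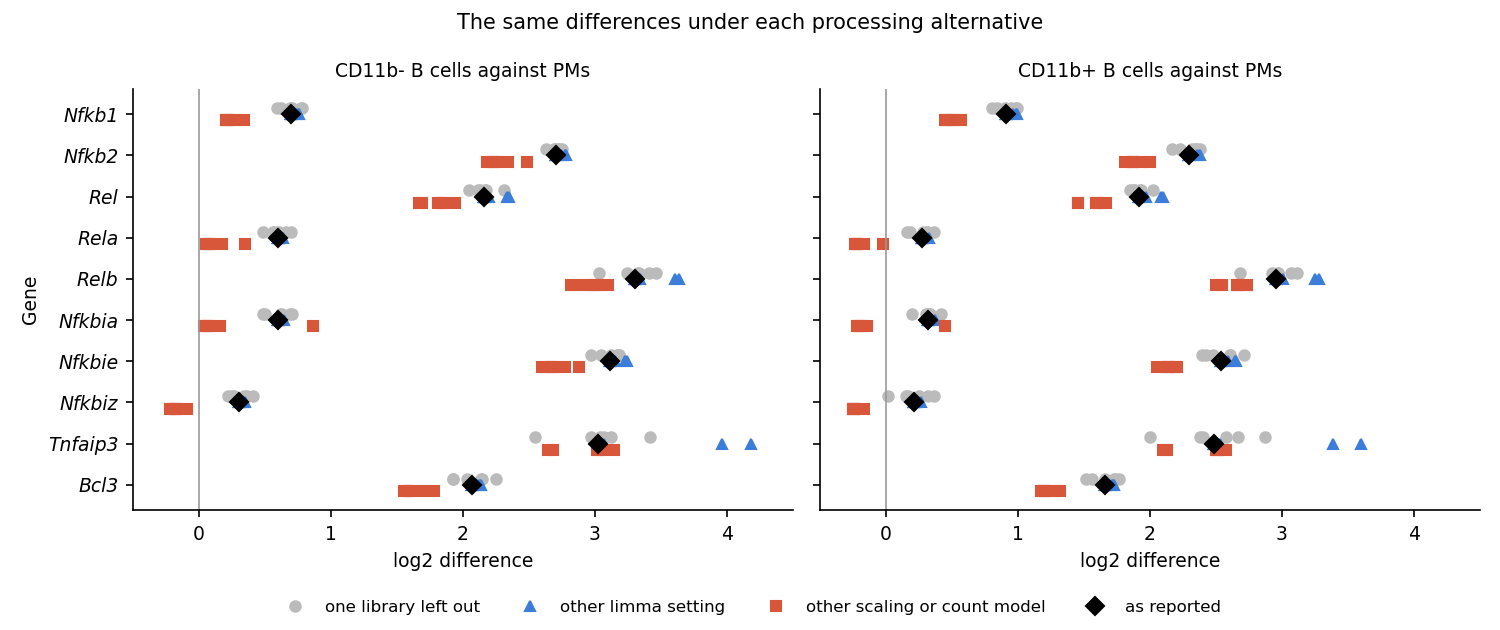
Difference of each member from PMs as reported (diamonds), with each library left out (circles), with other limma settings (triangles) and with other scaling or a count model (squares), on the log2 scale. Most squares of Rela, Nfkbia and Nfkbiz lie near or below 0, with Nfkbia under quantile normalization, at 0.86 in CD11b- B cells, as an exception, while all symbols of Relb, Nfkbie, Tnfaip3, Nfkb2, Rel and Bcl3 lie above 1.

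Relative amounts within a library do not depend on its size factor, and the make-up of the subunits differed between PMs and B cells. Rela made up 57.3, 52.4 and 61.0% of the summed subunit FPKM in PMs, 56.9 ± 4.29% (SD, n = 3). It made up 25.6 ± 1.54% in CD11b- and 25.4 ± 0.376% in CD11b+ B cells, so that the PM libraries were all above the B cell libraries. Nfkb2 was 19.8 ± 3.11% of the sum in PMs, 40.1 ± 0.905% in CD11b- and 37.7 ± 2.45% in CD11b+ B cells, and was the largest share in B cells. Relb was 5.10 ± 1.90% in PMs, 17.9 ± 1.35% in CD11b- and 17.4 ± 0.99% in CD11b+ B cells. The noncanonical pair, Nfkb2 and Relb, therefore made up 22.6 to 29.1% of the sum in PMs, 56.8 to 58.5% in CD11b- and 54.1 to 56.8% in CD11b+ B cells, where the B cell groups did not overlap but came within the rounding of these values. As shares of whole reads the pair made up 51.9 to 53.3% in CD11b- and 45.9 to 50.8% in CD11b+ B cells. Nfkb1 held 11.0 ± 1.17, 5.53 ± 0.789 and 8.17 ± 1.72%, and Rel 7.15 ± 0.768, 10.9 ± 2.14 and 11.4 ± 1.47% in the same order. CD11b+ and CD11b- B cells overlapped in the single shares of Nfkb2, Rel, Rela and Relb, and did not for Nfkb1 (6.83 to 10.1% against 4.88 to 6.41%). Shares were not computed after quantile normalization, which does change relative amounts within a library. These are shares of mRNA per length and say nothing of protein or of which dimers form.

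**Figure D4:**
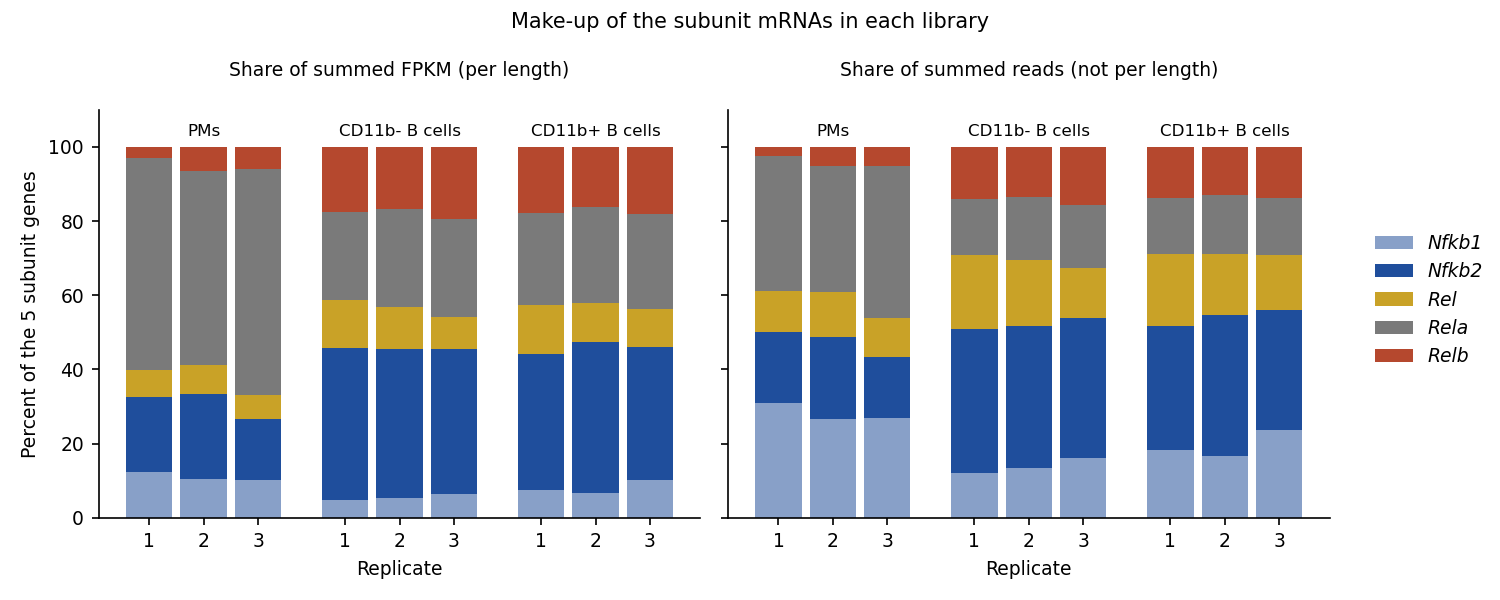
Share of each subunit gene in the sum of the 5 subunits, in percent, for each library, from FPKM (left, per length) and from whole reads (right, not per length). Rela is the largest share in all 3 PM libraries, 52.4 to 61.0% of FPKM, and Nfkb2 is the largest share in all 6 B cell libraries.

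Ratios between members differed in the same way. Relb to Rela was 0.0905 ± 0.0361 (SD, n = 3) in PMs, 0.698 ± 0.0588 in CD11b- and 0.686 ± 0.0452 in CD11b+ B cells. Nfkb2 to Nfkb1 was 1.81 ± 0.301 in PMs, 7.35 ± 1.156 in CD11b- and 4.78 ± 1.19 in CD11b+ B cells, and the CD11b+ libraries (3.56 to 5.94) were all below the CD11b- libraries (6.11 to 8.39). Nfkbia to Rela, an inhibitor to its usual target, was 4.13 to 7.56 in PMs, 5.16 to 6.25 in CD11b- and 5.20 to 6.11 in CD11b+ B cells, and the groups overlapped. Between the IkB genes, Nfkbia to Nfkbie was 18.4 to 30.7 in PMs, 3.73 to 4.11 in CD11b- and 4.14 to 6.10 in CD11b+ B cells.

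Other genes of the pathway were examined in lists of inhibitors, kinases, adaptors and targets. Against CD11b- B cells, 0 of the 64 genes tested in these lists passed the threshold in CD11b+ B cells, with adjusted p of at least 0.286 by limma. Against PMs, 31 were higher and 12 lower in CD11b- B cells, and 27 were higher and 10 lower in CD11b+ B cells. Under median-ratio scaling these became 21 and 16, and 21 and 15. The counts of each list below stand beside 25.8% higher and 11.0% lower among all genes in CD11b- B cells, and 21.5 and 8.78% in CD11b+ B cells, all by limma. With the filter raised to 1 FPKM these shares were 40 and 17.2% in CD11b- B cells, and 36.5 and 14.7% in CD11b+ B cells. By edgeR with TMM the shares of all genes were 21.1% higher and 20.9% lower in CD11b- B cells and 18.7 and 18.1% in CD11b+ B cells, and by DESeq2 they were 17.7 and 19.2%, and 16.1 and 15.4%.

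Adaptors were the list most often called higher than in PMs, 12 of 13 in CD11b- and 11 of 13 in CD11b+ B cells. Malt1, a paracaspase that acts upstream of IKK, had a log2 difference of 2.60 in CD11b- B cells. Traf5, an adaptor of TNF receptor family members, was at 30.9 and 26.7 FPKM against 2.35 (3.28 and 3.10), and Traf1 had a difference of 2.79 in CD11b+ B cells. Card9, an adaptor of myeloid cells, was the 1 adaptor that was lower, at 0.183 and 0.156 FPKM against 21.8 in PMs (-4.14 and -4.16).

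Of 15 other inhibitors, 6 were higher and 1 lower in each B cell group. These counts depended on the scaling and the model, since edgeR with TMM called 3 higher and 4 lower in both groups, DESeq2 called 5 lower in CD11b- and 6 in CD11b+ B cells, median-ratio scaling 4 and 3, and quantile normalization 3 and 2, with 3 higher in CD11b+ B cells. The 4 of 15 lower by edgeR are near the share of all genes that it called lower. The 6 of 15 higher by limma are near the share of genes called higher with the filter at 1 FPKM. The lower count was 2 without PM replicate 2 in both comparisons, and also 2 in CD11b- B cells with eBayes without a trend. It was 0 without CD11b- replicate 2 or CD11b+ replicate 1. In CD11b+ B cells it was also 0 with no filter on FPKM, with a mean FPKM of at least 1 and with a replicate block by title number. Nfkbid, a nuclear IkB-like gene, was at 134 FPKM in CD11b-, 94.6 in CD11b+ B cells and 13.1 in PMs (log2 difference 3.28 and 2.77). Tnip1, a partner of the Tnfaip3 product, had differences of 1.99 and 1.71, and Cyld, a deubiquitinase, 1.79 and 1.63. Tnip3 was lower, at 0.0669 and 0.0431 FPKM against 0.758 (-0.71 and -0.75), levels that are low in all groups. Of 14 kinases and kinase subunits, 6 were higher and 2 lower in CD11b- B cells and 2 were higher and 2 lower in CD11b+ B cells. Chuk, the IKK kinase of the noncanonical pathway, was at 28.3 and 29.0 FPKM against 9.58 (1.55 and 1.59), and Map3k8, a kinase held by the Nfkb1 precursor, had differences of 1.61 and 1.59. Ikbkg, the regulatory IKK subunit, was called in CD11b- B cells (1.62). Ikbke was lower at 1.43 and 2.51 FPKM against 18.1 (-2.89 and -2.38), as was Irak4 (-0.69 and -0.75). The 6 higher kinases in CD11b- B cells became 3 under median-ratio scaling, quantile normalization, edgeR with TMM and DESeq2, and the 2 in CD11b+ B cells became 6 with a mean FPKM of at least 1 and 7 with all 9 libraries in a single fit. Single libraries also moved the counts of higher kinases, which fell from 6 to 2 or 3 without any of the CD11b- libraries or PM replicate 2, and in CD11b+ B cells changed from 2 to 6 without PM replicate 1 and to 1 without CD11b+ replicate 1. Of the 2 lower kinases, only 1 passed without PM replicate 3 in both comparisons, without PM replicate 1 or CD11b- replicate 2 or 3 in CD11b- B cells, and without CD11b+ replicate 1 or 2 in CD11b+ B cells.

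Genes known as NF-kB targets went both ways against PMs. Of 23 tested, 7 were higher and 8 lower in CD11b- B cells, and 8 were higher and 6 lower in CD11b+ B cells, with medians of 0.10 and 0.20 (0.24 and 0.25 over all genes). The 7 higher of 23 are near the share among all genes. They are below the share with the filter at 1 FPKM, which some of the 23 would not pass. The 8 in CD11b+ B cells became 5 by edgeR with TMM. Ccr7, a chemokine receptor of lymphocytes and dendritic cells, was at 125 and 82.6 FPKM in the B cell groups and 0.428 in PMs (log2 difference 6.47 and 5.85). Cd83, a surface protein of activated B cells, was at 193 and 146 FPKM against 2.29 (5.91 and 5.50), and Gadd45b had differences of 3.60 and 3.54. Ier3 was at 0.691 and 1.32 FPKM against 86.6 in PMs (-5.67 and -5.24). Slc2a6 (-3.27 and -3.08) and the neutrophil chemokine gene Cxcl2 (-3.97 and -3.95, at most 0.0246 FPKM on average in B cells) were lower as well. Of 12 early response genes, which other pathways also induce, 3 were higher and 5 lower in CD11b- B cells, and 4 were higher and 4 lower in CD11b+ B cells. Between the B cell groups none of them was called.

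**Figure D5:**
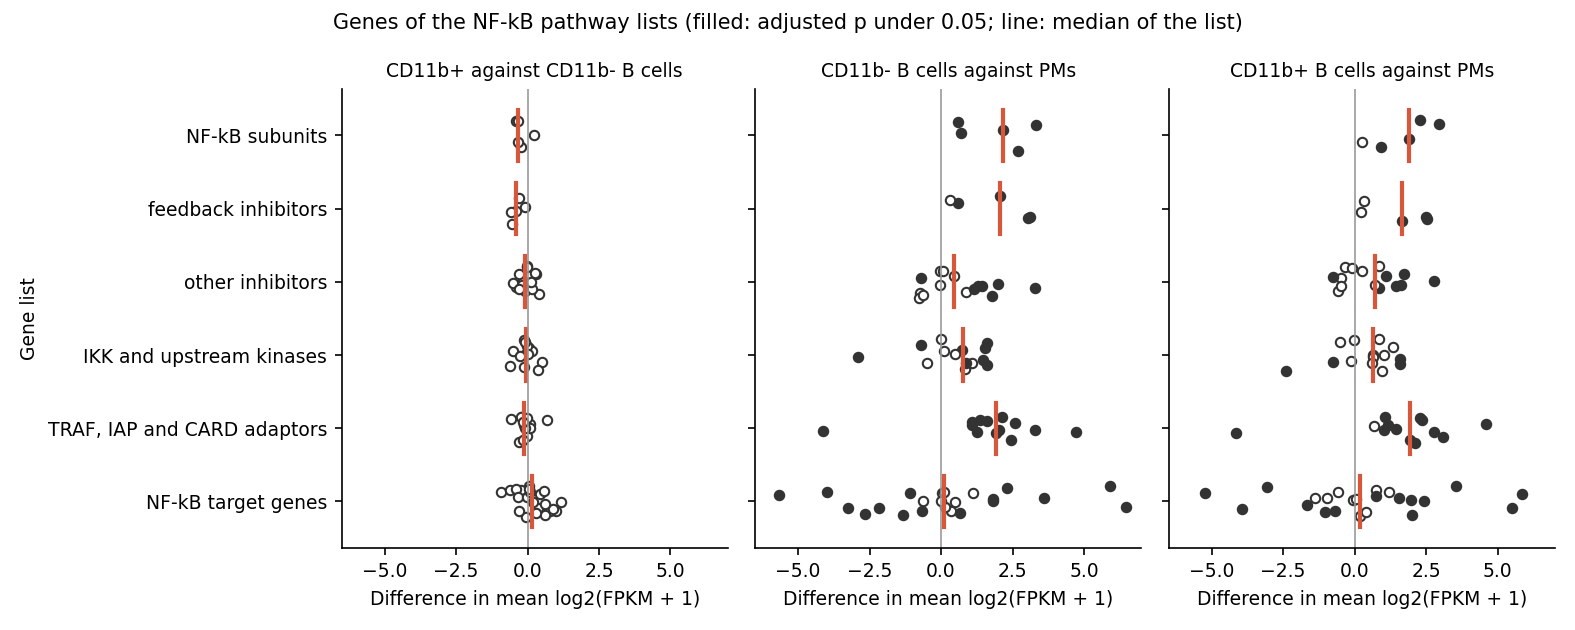
Difference in mean log2(FPKM + 1) for the tested genes of each list in the 3 comparisons, 1 point per gene, filled where the adjusted p was under 0.05, with a line at the median of the list. No point is filled in the left panel, and against PMs the adaptors are on the right in all but 1 case while the targets spread to both sides of 0.

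Across the 9 libraries, the members of the upper group followed each other closely, which mostly restates the step from PMs to B cells that the 3 groups share. Pearson's r of log2(FPKM + 1) was 0.99 between Relb and Nfkbie, 0.989 between Nfkb2 and Nfkbie and 0.987 between Nfkb2 and Rel (n = 9 libraries, described without a test). Nfkbiz was least like the others, with r from 0.347 with Rela to 0.682 with Nfkb1. Outside the list, the gene most like each member was Igkv4-80 for Nfkb2 (r = 0.9983), Iglj1 for Relb (0.9979), Idh3g for Tnfaip3 (0.9977), Trmt6 for Rel (0.997), Cnp for Nfkbie (0.9967), Casc3 for Rela (0.9911), Ighv1-61 for Bcl3 (0.9909), Gm27003 for Nfkb1 (0.9903), Rab11b for Nfkbia (0.9805) and Gm43654 for Nfkbiz (0.9299). Of these 10, 3 are immunoglobulin segments, and 5 of the 10 changed with a pseudocount of 0.1.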

How the data were processed

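RNA from 3 libraries each of PMs, CD11b- and CD11b+ B cells was analysed. The authors made SMART-seq HT libraries, trimmed read pairs (Trim Galore 0.4.4, Trimmomatic 0.36 and cutadapt 1.16), mapped them with STAR 2.7.2b and counted reads on genes with featureCounts 1.6.1, per the labels. GRCm38 and GRCm39 are both named in the submitters' processing notes. The deposited FPKM values normalize these counts for exon length and for the total of reads on genes. A second deposited table holds a normalized signal (size-factor-scaled counts) of 11063 genes selected by a p-value, and was used only to check the reads. DESeq2 1.20.0 is also named in the notes. Gene positions were taken from GENCODE M21 (GRCm38) by identifier, since only 1462 of the 52046 identifiers found there have the same start in the authors' table.

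FPKM times exon length gave whole reads, within 0.05, for 100% of values in each library. Limma 3.58.1 in R 4.3.3 (eBayes with a trend, two-sided) was fitted to log2(FPKM + 1) in the 6 libraries of a comparison, keeping genes whose mean FPKM reached 0.05, and p-values were adjusted by Benjamini-Hochberg over all genes tested, with a threshold of 0.05. A fold change on this scale understates that of low genes. Exact permutation tests used SciPy 1.17.1. Alternatives were other pseudocounts and filters, all 9 libraries in a single fit, a replicate block, median-ratio and quantile scaling, eBayes without a trend, removal of immunoglobulin genes, edgeR 4.0.16 and DESeq2 1.42.0 on the whole reads, and each library left out. The fits were first tested on simulated counts, in which limma and DESeq2 made more false calls than the threshold allows, so that calls near it are less sure than their adjusted p. Promoters are from RefSeq.

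The members and lists were chosen with earlier results of these data known. Of the lists, the 3 genes with the largest change per direction against PMs, past the threshold and without overlap, were named, apart from a list gene that is counted but not reported by name here. For likeness, the gene with the highest r and a mean FPKM of at least 1 was named.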

Additional observations from a re-analysis of the deposited data

How the results depend on the processing

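Each member and list count was recomputed under 20 alternatives for each comparison with PMs and 21 for CD11b+ against CD11b- B cells. Counts of members called stayed within 1.5 times the reported ones, at 6 to 9 (reported 9) in CD11b- B cells and 6 or 7 (reported 7) in CD11b+ B cells, with 0 lower throughout and 0 in either direction between the B cell groups. Of 610 single values of members, 40 lost their call and 25 changed sign, all of the latter not called as reported. The cause was not tested, beyond the shift in scale given above.

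In CD11b+ B cells against PMs, median-ratio scaling, edgeR with TMM, edgeR with median-ratio size factors, edgeR without its filter and DESeq2 gave log2 differences of -0.22, -0.22, -0.24, -0.16 and -0.23 for Rela, -0.19, -0.20, -0.22, -0.14 and -0.21 for Nfkbia, and -0.25, -0.24, -0.25, -0.17 and -0.24 for Nfkbiz. For Nfkbiz in CD11b- B cells they gave -0.19, -0.18, -0.22, -0.0927 and -0.20. Quantile normalization gave -0.0266 for Rela and -0.24 for Nfkbiz in CD11b+ B cells, and -0.18 for Nfkbiz in CD11b- B cells. Between the B cell groups Nfkbiz ran from -0.29 to 0.0582 with a library left out.

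Of the list genes, where 0 were reported between the B cell groups, edgeR without its filter called 4 higher in CD11b+ B cells (Il1b, Il6, Ccl3 and Cxcl10) and 1 lower (Bcl2l1), and DESeq2 called 1 higher (Il1b), named after their values were seen. Il1b was at 0 reads in every CD11b- library and at 23 to 30 in the CD11b+ libraries. Il6 and Ccl3 were also at 0 reads in CD11b- libraries, but at 12, 51 and 0, and at 17, 35 and 1, in CD11b+ replicates 1 to 3. Cxcl10 was at 126, 181 and 44 reads there, and at 0, 52 and 0 in CD11b- replicates 1 to 3. The Bcl2l1 call rested on CD11b- replicate 3, at 24.6 FPKM. Replicates 1 and 2 were at 3.62 and 2.47, and CD11b+ libraries at 2.50 to 3.39. DESeq2 called 17 lower in CD11b+ B cells than in PMs, where 10 were reported, and over all genes it called 15.4% lower, where limma called 8.78%. All genes called between the B cell groups ranged from 0 to 416 higher and 0 to 155 lower.

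As shares of whole reads, which are not per length, Nfkb1 made up 28.1% in PMs, 13.9% in CD11b- and 19.6% in CD11b+ B cells, Rela 37.1, 16.4 and 15.5%, and Rel 11.3, 17.0 and 16.9%. In CD11b- and CD11b+ B cells Nfkb2 made up 38.3 and 34.5%, Relb 14.5 and 13.5%, and both together 52.7 and 48.0%. With a pseudocount of 0.1 the most similar gene was another for Nfkb2 (r = 0.9974), Rel (0.9977), Relb (0.9975), Nfkbie (0.9969) and Tnfaip3 (0.9918).

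The replicate numbers of the titles were not taken as a pairing, since the deviations of same-numbered CD11b+ and CD11b- libraries correlated at 0.284, -0.0193 and 0.206. With a replicate block by these numbers 0 members were called between the B cell groups, against 16 higher and 0 lower of all genes. Against PMs 7 members were called in CD11b+ and 6 in CD11b- B cells, where Nfkb1, Rela and Nfkbia had adjusted p = 0.0660, 0.0557 and 0.0858 by limma. The B cell groups share 2 numbers in the descriptions, and these pairs are the ones at 0.284 and 0.206. They are the highest correlations of any CD11b+ with any CD11b- library. The pair at 0.206 also holds the libraries with the high B cell precursor sums, 175 and 42.3 FPKM. A pairing cannot be settled from 2 pairs, and the reported fit took the libraries as unpaired. A block by the description numbers gave 0 calls among all genes, with Nfkbiz at 0.0248. The lowest read count of any member was the 39 of Tnfaip3 in PM replicate 2, which was the deepest PM library.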
